A study of Mus musculus with 12 samples.

Results

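The Fcγ receptors and the signalling chain they share were followed in tumor-associated macrophages (TAMs) of mouse B16 melanoma. The set was chosen by gene symbol and comprises 5 of the 55401 genes listed in each of the 2 deposited count tables: Fcgr1, Fcgr3, Fcgr4, Fcgr2b and Fcer1g. Each symbol had a single row in both tables. Bulk RNA-seq was performed on TAMs that the study sorted from subcutaneous B16-F10 melanomas, with 3 libraries in each of 4 groups. Its methods define TAMs in flow cytometry as CD45+CD11b+Ly6C-Ly6G-F4/80+ cells, although other passages give Ly6C or Ly6G as positive, and cells for cytometry were first blocked with antibody to CD16/32, the products of Fcgr3 and Fcgr2b. The WT group came from AMPKfl/fl littermates, which carry the floxed allele without Cre. The AMPK-KO group came from AMPKfl/flLyz2cre/cre mice, in which Cre is made from the Lyz2 locus and so in myeloid cells generally, not in TAMs alone. The titles of all 3 AMPK-KO samples give Lyz2, whereas the genotype field of replicates 2 and 3 reads Lyz3 and Lyz4. The early-stage and late-stage groups were labelled WT in genotype and came from tumors of day 8 and day 15, and the methods give day 15 for the WT and AMPK-KO tumors as well. All groups were labelled untreated, and the age of the mice at sorting is not in the labels.

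Fcγ receptors bind the constant part of IgG and let macrophages read antibody-coated cells and immune complexes. Fcgr1 (CD64), Fcgr3 (CD16) and Fcgr4 (CD16-2) are activating and depend on the γ chain encoded by Fcer1g, whose ITAM motif is phosphorylated by Src-family kinases and recruits Syk. Fcgr2b (CD32B) is the inhibitory receptor, whose ITIM motif recruits the inositol phosphatase SHIP-1, and the balance between both kinds of receptor is known to set the threshold for antibody-dependent phagocytosis.

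Fcgr2b, Fcgr4 and Fcgr3 lie side by side on chromosome 1, in this order, within 106319 bases of the mouse build GRCm38. Fcgr2b spans chr1:170958617-170976547 on the minus strand, Fcgr4 spans chr1:171018920-171029761 on the plus strand and Fcgr3 spans chr1:171051174-171064935 on the minus strand. Fcer1g lies on the same chromosome at chr1:171229572-171234365 (minus strand), and Fcgr1 stands apart at chr3:96282909-96293969 (minus strand). The 250 bases before the RefSeq start (GRCm38.p6) are shown for Fcgr4 and Fcgr2b, the members that passed the test in a comparison. The windows of Fcgr2b and Fcgr3 lie inside the gene spans given above, which come from an annotation with other starts. Capitals mark the core of the site of PU.1, a transcription factor of the myeloid lineage, written GAGGAAG or, on the opposite strand, CTTCCTC.
Fcgr4 (chr1:171018676-171018925, plus strand): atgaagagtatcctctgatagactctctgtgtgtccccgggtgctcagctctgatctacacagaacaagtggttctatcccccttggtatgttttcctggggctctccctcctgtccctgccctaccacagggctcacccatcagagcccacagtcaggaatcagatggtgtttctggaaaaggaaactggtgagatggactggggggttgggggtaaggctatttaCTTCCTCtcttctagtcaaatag
Fcgr2b (chr1:170976072-170976321, minus strand): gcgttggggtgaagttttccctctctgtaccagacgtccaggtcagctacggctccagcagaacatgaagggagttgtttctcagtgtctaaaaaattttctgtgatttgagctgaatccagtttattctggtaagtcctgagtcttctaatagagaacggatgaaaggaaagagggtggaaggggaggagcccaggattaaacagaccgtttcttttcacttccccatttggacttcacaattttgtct
The Fcgr4 window held a single PU.1 core, at positions -23 to -17 from the start. The Fcgr1 window held a PU.1 core at -56 to -50. Fcgr3 held a PU.1 core too, at -16 to -10 and at -7 to -1 as counted from 2 RefSeq starts, while these letters were not found in the Fcgr2b and Fcer1g windows. Among 32851 windows of this length from all RefSeq starts, searched on both strands, 10.6% held the PU.1 core. A match is a run of letters, and no binding was measured here.

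Total counts ranged from 71019494 to 84470374 per library, and the 5 members took between 20830 and 71232 counts each in every library. Levels are given as CPM, the counts scaled to library size with TMM factors within each table. In the sorted cells all 9 macrophage markers were detected, with sums of 12000.0 to 13380.0 CPM in WT, 12120.0 to 12520.0 in AMPK-KO, 9106 to 11520.0 in early-stage and 12110.0 to 12220.0 in late-stage libraries. Summed markers of monocytes reached at most 793 CPM, those of T cells 196 CPM, of neutrophils 185 CPM, of conventional dendritic cells 84.9 CPM, of eosinophils 7.32 CPM and of basophils or mast cells 3.21 CPM, whereas melanoma markers reached 1122 CPM. Counts of Uty, Kdm5d, Ddx3y and Eif2s3y, which lie on the Y chromosome, summed to between 3435 and 4035 counts in the early-stage libraries and to between 0 and 4 in the late-stage libraries, so that the presence of Y-linked transcripts and stage cannot be told apart. In the WT and AMPK-KO libraries they summed to between 9229 and 12183 counts, while the methods describe female mice. Prkaa1, which encodes the AMPK α1 subunit and is the targeted gene, was 65.0 ± 3.34 CPM in WT and 42.9 ± 3.53 CPM in AMPK-KO TAMs (SD, n = 3). It fell by 0.60 ± 0.07 on the log2 scale (estimate ± SE, adjusted p = 0.000226, edgeR quasi-likelihood test with Benjamini-Hochberg adjustment over all genes tested). The labels do not say whether the samples of a group came from separate mice, so p-values measure only the spread between these libraries.

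Per kilobase of annotated exon, Fcer1g was the most abundant member and Fcgr2b the least in every group. In WT TAMs the levels were 911 ± 83.9 CPM per kilobase for Fcer1g, 354 ± 13.5 for Fcgr3, 262 ± 9.60 for Fcgr1, 237 ± 5.88 for Fcgr4 and 113.5 ± 1.02 for Fcgr2b (mean ± SD, n = 3), and the libraries of neighbouring genes in this order did not overlap. In AMPK-KO TAMs Fcgr4 stood second at 439.8 ± 10.4 CPM per kilobase, above Fcgr3 at 351 ± 11.6 and Fcgr1 at 277 ± 2.16. In early-stage TAMs Fcgr3 (290.3 ± 13.6) and Fcgr4 (278.5 ± 19.8) overlapped, as they did in late-stage TAMs at 251 ± 5.19 and 254 ± 8.57 CPM per kilobase. When the longest annotated transcript was taken as the length, Fcgr3 stood above Fcgr4 in all 4 groups, at 452 ± 15.0 against 439.8 ± 10.4 CPM per kilobase in AMPK-KO TAMs, where their libraries then overlapped. The members differ in how much sequence they share with other genes. No 100-base stretch of Fcgr1, Fcgr4 or Fcer1g exons recurs in another annotated gene, whereas 2.54% of those of Fcgr3 recur in Fcgr2b and 4.3% of those of Fcgr2b recur elsewhere. At 50 bases the Fcgr3 share was 9.58%, and how the counting treated such reads is not given in the sources used here, so Fcgr2b and Fcgr3 are the less certain values.

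**Figure D1:**
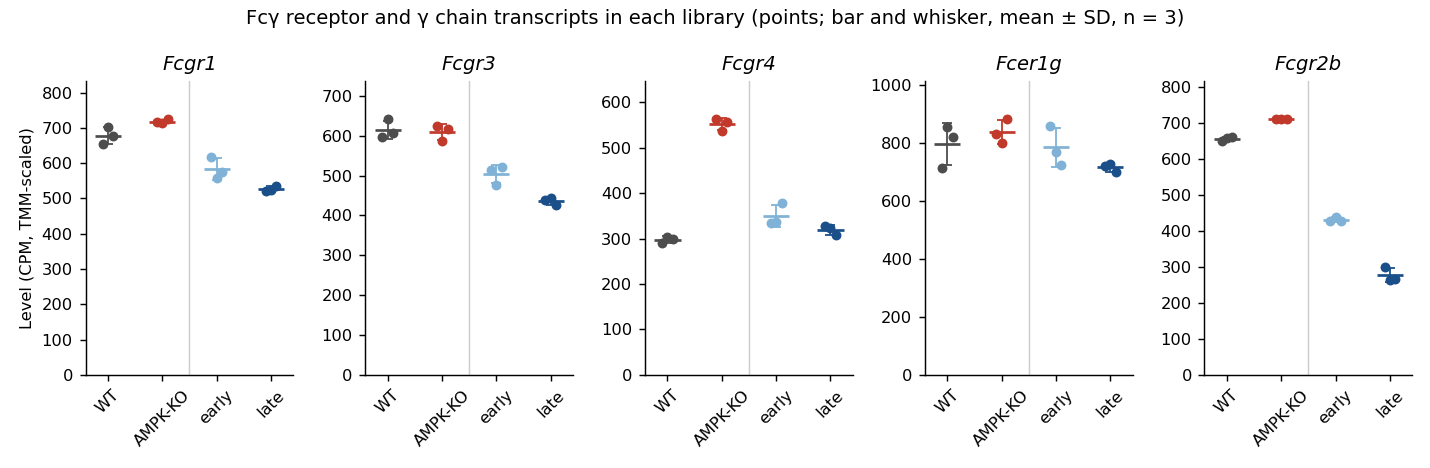
Levels of the 5 members in each library, in CPM after TMM scaling on an axis from 0, with points for libraries and bars and whiskers for mean ± SD (n = 3); the grey line separates the 2 tables, which were scaled separately. Fcgr4 lies between 289 and 304 CPM in WT and between 538 and 562 CPM in AMPK-KO libraries, and Fcgr2b lies between 427 and 439.8 CPM in early-stage and between 265 and 299 CPM in late-stage libraries.

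The comparison of AMPK-KO with WT TAMs asked what differs when AMPK is targeted in myeloid cells. The WT mice carry no Cre, so the targeting of AMPK and the Cre in the Lyz2 locus cannot be told apart. Prkaa1 transcripts were lower in AMPK-KO TAMs but still present, as given above. Among the Fcγ receptors it was Fcgr4 that rose, by 1.86-fold, while the other activating receptors, the γ chain and the inhibitory Fcgr2b did not pass the test. Thus 1 of 5 members was called higher and none lower, where 11.3% of the 17532 genes tested were called higher and 9.78% lower. In bulk RNA a higher level per cell and a larger share of cells with the transcript cannot be told apart.

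Fcgr1, the high-affinity receptor for monomeric IgG, stood at 654, 703 and 677.5 CPM in WT replicates 1 to 3 and at 716, 713 and 724 CPM in AMPK-KO replicates 1 to 3. All AMPK-KO libraries were above all WT libraries, yet the difference of 0.08 on the log2 scale (SE 0.04) did not pass the test (adjusted p = 0.209, edgeR). Fcgr3, a low-affinity receptor that NK cells carry as well, stood at 597, 641 and 606 CPM in WT and at 624, 586 and 617 CPM in AMPK-KO libraries. The groups overlapped, with a log2 fold change of -0.01 (95% interval -0.12 to 0.09, adjusted p = 0.881, edgeR), and the sign turned without WT replicate 2 (0.02) or AMPK-KO replicate 2 (0.01).

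Fcgr4, which binds IgG2a, IgG2c and IgG2b, stood at 289, 304 and 299 CPM in WT and at 562, 538 and 557 CPM in AMPK-KO libraries. Even the lowest AMPK-KO library stood far above the highest WT library. The mean went from 297 ± 7.38 to 552.5 ± 13.1 CPM (SD, n = 3), or 0.89 on the log2 scale (SE 0.04, 95% interval 0.80 to 0.99, adjusted p = 5.18e-07, edgeR), which ranked 42 among all genes tested by adjusted p. Without any single library the log2 fold change stayed between 0.87 and 0.91 and the call held.

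The γ chain gene Fcer1g stood at 714, 855 and 820.3 CPM in WT and at 830.0, 801 and 882 CPM in AMPK-KO libraries. WT replicate 1 was the lowest and the groups overlapped, with a log2 fold change of 0.07 (95% interval -0.07 to 0.22, adjusted p = 0.5, edgeR) that was -0.00 without that library. The inhibitory Fcgr2b stood at 650.2, 659.7 and 661 CPM in WT and at 711.2, 710.9 and 711.2 CPM in AMPK-KO libraries. The groups did not overlap, and the log2 fold change of 0.11 (95% interval 0.03 to 0.20) had an adjusted p of 0.0558 with edgeR. The call was made with library totals in place of TMM factors (0.12, adjusted p = 0.048) and with DESeq2 (0.12, adjusted p = 0.0432). In all, 3 of 5 members were higher in every AMPK-KO library than in every WT library and none lower, where 18.8% of all genes tested were higher and 18.4% lower without overlap.

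Markers of other myeloid and lymphoid cells moved in the same comparison, where 11.3% of all genes tested were called higher and 9.78% lower. Of the 4 monocyte markers 3 rose (Ly6c2, Ccr2 and Plac8), with sums of 434 to 476 CPM in WT and 762 to 793 CPM in AMPK-KO libraries. Of the 7 neutrophil markers 4 rose (111 to 119 against 183 to 185 CPM), while the defining marker Ly6g had no count in any of the 6 libraries. Most of these sums was Csf3r, at 96.55 CPM in WT and 154 CPM in AMPK-KO TAMs. S100a8 was at 1.05 and 2.10 CPM and S100a9 at 0.697 and 2.47 CPM. All 6 NK cell markers rose (31.9 to 35.3 against 78.4 to 80.4 CPM), as did all 5 markers of conventional dendritic cells (45.8 to 51.3 against 76.7 to 84.9 CPM) and 5 of 6 T cell markers (87.4 to 95.3 against 153.5 to 159 CPM). All 5 melanoma markers fell, from sums of 629.9 to 650.5 CPM to 455 to 471 CPM, and of the macrophage markers Csf1r and Itgam rose and Cd68 fell. The part of these cells in the Fcgr4 difference was not tested. Of the 5 B cell markers 4 fell and Cd79b rose (30.9 to 32.5 against 19.9 to 22.1 CPM), with Pax5 at 3.14 ± 0.568 CPM in WT and 0.0330 ± 0.0572 CPM in AMPK-KO TAMs. B cells also carry Fcgr2b, and their part in its level was not tested.

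Other receptors for the Fc part of antibodies were followed from a list of 15 genes, of which 11 had enough counts to be tested. Of these, 4 rose, 4 fell and 3 did not pass, with a median log2 fold change of -0.42 where all genes tested had -0.004. The share of all genes tested was 11.3% called higher and 9.78% lower. Fcgrt, which encodes the neonatal Fc receptor that recycles IgG, fell from 385.6 ± 20.6 to 266 ± 16.1 CPM (log2 change -0.54, SE 0.06, adjusted p = 0.000115, edgeR). Its light chain partner B2m, which also serves MHC class I, went the other way, from 3049 ± 246 to 3448 ± 93.3 CPM (0.18, SE 0.05, adjusted p = 0.0428, edgeR). The B2m call was lost with upper-quartile factors, without a filter on low counts, and without WT replicate 1, WT replicate 3 or any single AMPK-KO replicate (adjusted p up to 0.147). Trim21, a cytosolic antibody receptor, rose from 30.3 ± 2.62 to 40.4 ± 2.61 CPM (0.42, adjusted p = 0.00503, edgeR).

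The Fc receptor-like genes did not move one way. Fcrl5 rose from 15.1 ± 0.441 to 38.15 ± 4.30 CPM (log2 change 1.34, SE 0.09, adjusted p = 5.22e-06, edgeR) and Fcrlb from 11.1 ± 0.875 to 22.8 ± 0.820 CPM (1.04, SE 0.09, adjusted p = 2.87e-05). Fcrlb lies within 50 kb of the Fcγ cluster on chromosome 1, with Fcrla between them. Fcrls fell from 304 ± 10.4 to 205 ± 9.20 CPM (-0.57, SE 0.05, adjusted p = 2.72e-05). The receptors of B cells for IgE and IgM, Fcer2a and Fcmr, fell from 2.95 ± 0.964 and 3.51 ± 0.226 CPM in WT to 0.121 ± 0.106 and 0.0456 ± 0.0438 CPM in AMPK-KO TAMs, together with the B cell markers given above. Fcrl1, Fcrla and Fcrl6 were at 2.99, 1.38 and 0.125 CPM in WT and 2.24, 0.934 and 0.645 CPM in AMPK-KO TAMs and were not called, although Fcrl6 was called with DESeq2 (adjusted p = 0.0477), with the replicate number as a block (adjusted p = 0.0344) and without WT replicate 1 (adjusted p = 0.0451). The remaining 4 listed genes, Fcer1a, Ms4a2, Fcamr and Pigr, had too few counts to be tested.

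The ligands were followed through the transcripts of the IgG heavy chains, of which 1 of 4 rose and none fell. Over all genes tested 11.3% were called higher and 9.78% lower. Ighg2b rose from 1.81 ± 0.496 to 3.37 ± 0.3425 CPM (log2 change 0.89, SE 0.23, adjusted p = 0.0186, edgeR), a call that was lost without WT replicate 2 (adjusted p = 0.0529), AMPK-KO replicate 2 (0.0577) or AMPK-KO replicate 3 (0.0667). Ighg1, Ighg2c and Ighg3 were at 1.49, 3.75 and 0.133 CPM in WT and at 0.833, 3.27 and 0.306 CPM in AMPK-KO TAMs.

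**Figure D2:**
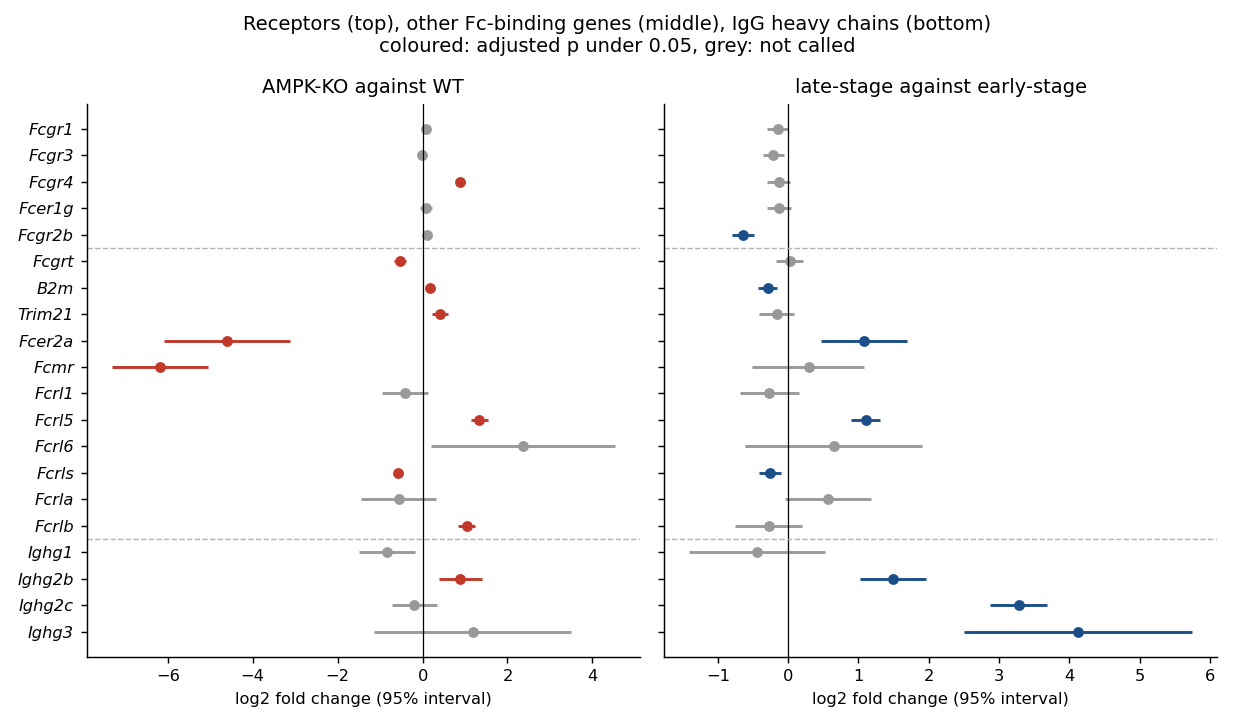
Log2 fold changes with 95% intervals for the 5 members, the other Fc-binding genes and the IgG heavy chains, for AMPK-KO against WT and for late-stage against early-stage TAMs, on separate horizontal axes; colour marks an adjusted p under 0.05. Fcgr4 at 0.89 is the coloured member on the left and Fcgr2b at -0.64 the coloured member on the right.

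Genes that act beside or below the receptors were followed in 6 further lists. The share to set beside the count of each list is 11.3% of all genes tested called higher and 9.78% lower. Among the 12 adaptors and receptors that use the γ chain or a related adaptor, 10 were tested, 6 rose and 2 fell (median 0.48). Tarm1, an activating receptor of myeloid cells, rose from 18.3 ± 0.105 to 34.6 ± 1.99 CPM (log2 change 0.92, adjusted p = 1.53e-05, edgeR). Pira2, a paired immunoglobulin-like receptor with close paralogs that makes its count uncertain, rose from 59.0 ± 2.34 to 99.4 ± 11.4 CPM (0.75, adjusted p = 9.99e-05). Ncr1, a receptor of NK cells, rose from 1.78 to 5.89 CPM, or by 1.73 on the log2 scale (adjusted p = 0.000127), together with the NK cell markers given above. The C-type lectin receptors Clec4d (179 ± 19.9 to 119 ± 7.70 CPM, -0.59) and Clec4n, also called Dectin-2 (166 ± 2.56 to 124 ± 7.15 CPM, -0.42), fell. Other C-type lectin receptors of this list rose, namely Clec4b1 (0.70, adjusted p = 0.00241, edgeR) and Clec4e (0.24, adjusted p = 0.00708).

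Of the 29 genes of the activating signal, 15 rose, none fell and 14 did not pass, with a median log2 fold change of 0.27. The Src-family kinase Fgr rose from 109 ± 2.27 to 163 ± 4.497 CPM (0.58, SE 0.05, adjusted p = 1.79e-05, edgeR). Malt1, a paracaspase of the signal to NF-κB, rose from 50.4 ± 5.75 to 93.5 ± 6.68 CPM (0.89, SE 0.09, adjusted p = 5.3e-05). Syk, the kinase that the γ chain recruits, rose from 370.2 ± 13.2 to 419 ± 7.66 CPM (0.18, adjusted p = 0.0167). Among the genes of the phagocytic cup, where actin drives the membrane around the target, 33 of 34 were tested, 12 rose and 3 fell (median 0.12). Vasp, which extends actin filaments, rose by 0.60 (adjusted p = 0.000112), Myo1f by 0.27 and the Arp2/3 subunit gene Actr3 by 0.26. Arpc3, of the same complex, fell by 0.31, Myo10 by 0.35 and Cfl1, which severs filaments, by 0.17. The Cfl1 call was lost without a filter on low counts and without WT replicate 2, WT replicate 3, AMPK-KO replicate 1 or AMPK-KO replicate 2 (adjusted p up to 0.147), and the Myo10 call without AMPK-KO replicate 1 (adjusted p = 0.0549). The 15 calls among cup genes became 9 when AMPK-KO replicate 2 was left out and 8 when WT replicate 3 was.

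On the inhibitory side, 2 of 11 signalling genes rose and none fell (median 0.14). Over all genes tested 11.3% were called higher and 9.78% lower. The phosphatase gene Ptpn6 (SHP-1) rose from 462 ± 18.3 to 609 ± 3.44 CPM (log2 change 0.40, adjusted p = 0.000114, edgeR) and the adaptor Dok3 from 94.6 ± 4.92 to 113 ± 3.43 CPM (0.26, adjusted p = 0.00858). Inpp5d, which encodes SHIP-1, stood at 337 ± 20.7 CPM in WT and 369.7 ± 17.2 CPM in AMPK-KO TAMs and was not called (0.13, adjusted p = 0.132). DESeq2 called 4 of these genes, as did edgeR without WT replicate 1. Of 12 other inhibitory receptors, 10 rose and none fell (median 0.43). Pecam1 rose from 37.5 ± 1.71 to 91.2 ± 1.20 CPM (1.28, SE 0.06, adjusted p = 3.3e-07), Cd300lf from 107 ± 4.23 to 180.5 ± 1.37 CPM (0.75) and Pilra from 70.8 ± 3.14 to 109.6 ± 4.29 CPM (0.63).

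Of 13 genes known to regulate Fcγ receptor expression, 6 rose and 1 fell (median 0.16). The interferon regulatory factor Irf1 rose from 144 ± 1.26 to 299 ± 11.1 CPM (log2 change 1.06, SE 0.05, adjusted p = 3.3e-07, edgeR). Il10ra, the interleukin-10 receptor, rose from 208 ± 5.67 to 331 ± 12.95 CPM (0.67, adjusted p = 6.31e-06). C5ar1, the receptor for complement C5a, fell from 515 ± 7.43 to 318 ± 5.63 CPM (-0.69, adjusted p = 1.81e-06). Spi1, which encodes PU.1, was 482 ± 22.85 CPM in WT and 519 ± 24.4 CPM in AMPK-KO TAMs and was not called (0.11, adjusted p = 0.186).

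The comparison of late-stage with early-stage TAMs asked what differs between tumors of day 15 and day 8. As given above, the presence of Y-linked transcripts differs between the same groups and cannot be told apart from stage. Here Fcgr2b was the member that fell, to a level 1.56-fold lower at day 15 than at day 8, and the activating receptors and the γ chain did not pass the test. Thus 1 of 5 members was called lower and none higher, where 4.88% of the 17630 genes tested were called lower and 4.31% higher.

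Fcgr2b stood at 427, 439.8 and 429 CPM in early-stage replicates 1 to 3 and at 299, 265 and 268 CPM in late-stage replicates 1 to 3. Even the highest late-stage library stood far below the lowest early-stage library. The mean went from 432 ± 6.84 to 277 ± 19.1 CPM (SD, n = 3), or -0.64 on the log2 scale (SE 0.07, 95% interval -0.80 to -0.48, adjusted p = 0.000625, edgeR), rank 156 of the genes tested. Leaving out any single library gave between -0.70 and -0.61, and the call held each time. The WT TAMs of the AMPK-KO comparison, also of day 15 by the methods, had Fcgr2b at 657 ± 5.92 CPM, above both stage groups. The 2 comparisons were scaled separately, and this difference between them was not tested.

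Fcgr1 stood at 618, 557 and 576 CPM in early-stage and at 520.0, 525 and 535 CPM in late-stage libraries. All late-stage libraries were lower, but by a log2 fold change of -0.15 (95% interval -0.30 to 0.00) that was not called (adjusted p = 0.211, edgeR). Fcgr3 stood at 514, 477 and 521 CPM in early-stage and at 438, 443.5 and 426 CPM in late-stage libraries. The groups did not overlap, with a log2 fold change of -0.21 (95% interval -0.36 to -0.06, adjusted p = 0.0842, edgeR). Fcgr4 stood at 334, 337 and 378 CPM in early-stage and at 327, 324 and 307 CPM in late-stage libraries, just without overlap (-0.13, 95% interval -0.30 to 0.03, adjusted p = 0.315). Fcer1g stood at 858, 771 and 726 CPM in early-stage and at 721.5, 727 and 699 CPM in late-stage libraries, where early-stage replicate 3 fell within the late-stage range (-0.13, adjusted p = 0.324). In all, 4 of 5 members were lower in every late-stage library and none higher, where 15.6% of the genes tested were lower and 15.6% higher without overlap. Whether Fcgr2b changed more than the activating receptors was not tested.

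**Figure D3:**
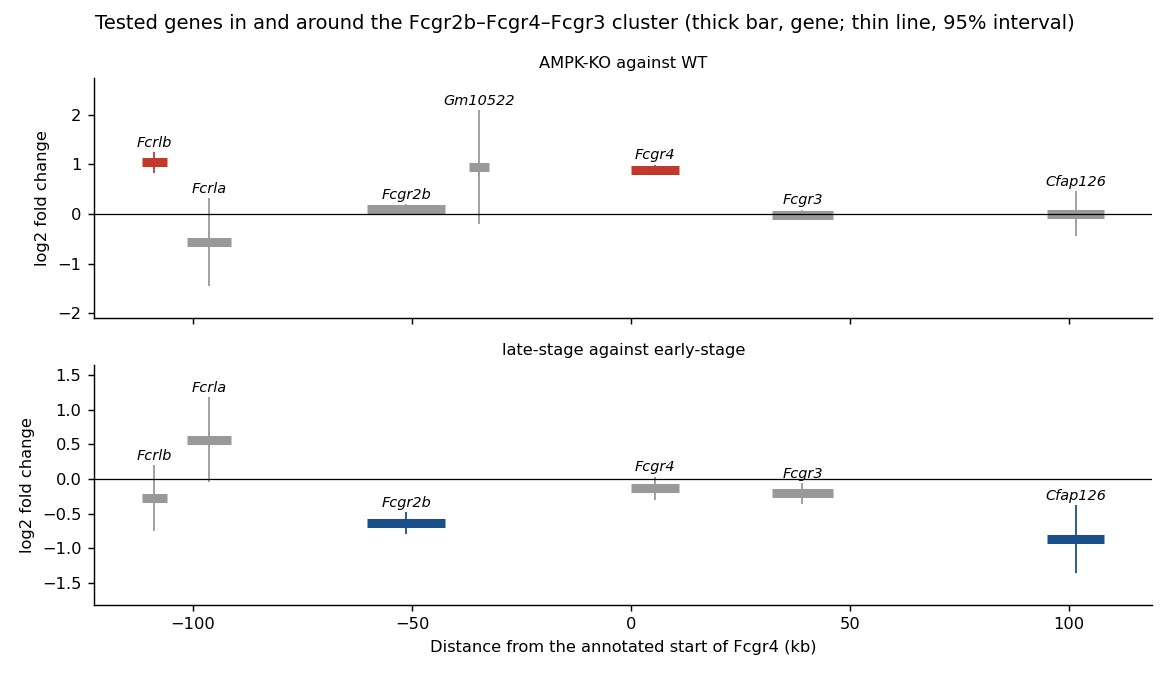
Log2 fold changes of the tested genes in and within 50 kb of the Fcγ cluster, drawn against distance from the annotated start of Fcgr4 in kilobases, with a thick bar for each gene and a thin line for the 95% interval; colour marks an adjusted p under 0.05, and Gm2962, which lies inside Fcrla, is left out. Fcgr4 and Fcrlb are coloured above 0 for AMPK-KO against WT, and Fcgr2b and Cfap126 below 0 for late-stage against early-stage.

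In AMPK-KO TAMs Fcgr4 rose between Fcgr2b and Fcgr3, which were not called, and of the other genes within 50 kb Fcrlb rose while Fcrla, Gm2962, Gm10522 and Cfap126 were not called. In late-stage TAMs Fcgr2b fell, while Fcgr4 and Fcgr3 beside it were lower in every late-stage library without being called, and Cfap126, a gene of cilia, fell from 3.35 ± 0.338 to 1.83 ± 0.321 CPM (log2 change -0.87, SE 0.22, adjusted p = 0.0359, edgeR). The antisense gene Gm38204 that overlaps Fcgr2b had 48 and 22 counts in all over the 6 libraries of each table, against 315313 and 173353 counts for Fcgr2b.

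Markers of other cells moved with stage as well, where 4.31% of all genes tested were called higher and 4.88% lower. Of the 4 monocyte markers 3 fell, with sums of 497 to 583 CPM in early-stage and 203 to 231 CPM in late-stage libraries. Of the 6 NK cell markers 4 fell (86.6 to 98.6 against 38.55 to 52.8 CPM), of the 7 neutrophil markers 2 fell (121 to 128 against 104 to 109 CPM, with 5 counts of Ly6g in all), and of the 5 melanoma markers 3 fell (1072 to 1122 against 510.5 to 825 CPM). B cell markers went the other way, 3 of 5 rising (37.3 to 41.8 against 57.5 to 82.9 CPM), as did 2 of 6 T cell markers (134 to 146.5 against 171 to 196 CPM). Of the macrophage markers C1qa rose and Cd14 fell. Of the 5 markers of conventional dendritic cells 1 fell (47.3 to 57.7 against 41.6 to 44.8 CPM), as did 1 of 4 eosinophil markers (5.74 to 7.32 against 3.32 to 4.67 CPM, with Epx at 0 in all 6 libraries). The part of all these cells in the Fcgr2b difference was not tested.

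Of the 11 other Fc-binding genes tested, 2 rose, 2 fell and 7 did not pass (median 0.02, where all genes tested had 0.003). The share of all genes tested was 4.31% called higher and 4.88% lower. Fcrl5 rose from 26.6 ± 1.68 to 56.85 ± 4.83 CPM (log2 change 1.10, SE 0.09, adjusted p = 0.000132, edgeR), and Fcer2a from 2.76 ± 0.834 to 5.835 ± 1.65 CPM (1.08, adjusted p = 0.0388). B2m fell from 3958 ± 37.5 to 3227 ± 144 CPM (-0.29, adjusted p = 0.0171) and Fcrls from 199 ± 5.96 to 167 ± 8.25 CPM (-0.26, adjusted p = 0.0489). Fcgrt was 161 ± 17.3 CPM in early-stage and 163 ± 2.53 CPM in late-stage TAMs and was not called. The call of Fcrl5 held without any single library, and for the others the log2 changes without single libraries ran from 0.91 to 1.34 for Fcer2a, from -0.32 to -0.26 for B2m and from -0.29 to -0.22 for Fcrls while calls were lost. The Fcer2a call was lost without a filter on low counts and without early-stage replicate 1 or 2 or late-stage replicate 2 or 3 (adjusted p up to 0.155), the B2m call without early-stage replicate 2 or any single late-stage replicate (up to 0.09), and the Fcrls call without early-stage replicate 2 or 3 or any single late-stage replicate (up to 0.184). With all libraries kept, the Fcrls call was also lost with library totals (adjusted p = 0.0654) and without a filter on low counts (0.084).

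Of the remaining Fc-binding genes, Fcmr, Fcrl1, Fcrla, Fcrlb, Fcrl6 and Trim21 were at 4.53, 4.24, 1.26, 8.51, 0.253 and 31.7 CPM in early-stage and 5.53, 3.52, 1.87, 7.03, 0.396 and 28.3 CPM in late-stage TAMs, and none was called. The IgG heavy chains rose in 3 of 4 cases, where 4.31% of all genes tested were called higher. Ighg2c, an isotype that Fcgr4 and Fcgr1 bind, rose from 2.66 ± 0.469 to 25.8 ± 4.39 CPM (log2 change 3.28, SE 0.18, adjusted p = 1.15e-05, edgeR). Ighg2b rose from 3.80 ± 1.19 to 10.7 ± 0.641 CPM (1.49, SE 0.21, adjusted p = 0.00221) and Ighg3 from 0.1835 ± 0.0811 to 3.24 ± 2.295 CPM (4.12, SE 0.73, adjusted p = 0.00739, lost without early-stage replicate 2 at 0.057). Ighg1 was 19.3 ± 4.11 CPM in early-stage and 14.2 ± 8.49 CPM in late-stage TAMs and was not called. As background, cells of the B lineage make these transcripts, and 3 of 5 B cell markers rose between the same groups. Their part in the result was not tested.

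Among the adaptors and receptors that use the γ chain or a related adaptor, 6 of the 10 tested fell with stage and 2 rose. The median log2 fold change was -0.81. For this list and those that follow, the share of all genes tested was 4.31% called higher and 4.88% lower. The lectin receptors Clec4n (129 ± 10.1 to 55.9 ± 1.82 CPM, -1.21, adjusted p = 2.85e-05, edgeR), Clec4d (181 ± 17.0 to 82.2 ± 1.91 CPM, -1.14, adjusted p = 4.79e-05) and Clec4e, also called Mincle (73.1 ± 5.01 to 32.3 ± 4.51 CPM, -1.18, adjusted p = 0.000199), fell together. Lilra5 rose from 6.845 ± 0.207 to 15.45 ± 0.560 CPM (1.17, adjusted p = 0.000212), as did Clec4b1 (0.54, adjusted p = 0.0178), whose call was lost without early-stage replicate 2 or late-stage replicate 2 or 3 (adjusted p up to 0.098). The adaptor gene Tyrobp was 342 ± 78.4 CPM in early-stage and 366 ± 21.4 CPM in late-stage TAMs and, like Fcer1g itself, was not called.

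Of the 29 activating signal genes 5 rose and 1 fell (median 0.11). Vav2, a guanine nucleotide exchange factor, rose from 45.1 ± 1.18 to 66.7 ± 3.69 CPM (log2 change 0.56, adjusted p = 0.00186, edgeR) and the adaptor Blnk by 0.47 (adjusted p = 0.00511). Fgr fell from 95.4 ± 3.90 to 63.3 ± 7.39 CPM (-0.59, adjusted p = 0.00423). Syk was 314 ± 5.94 CPM and 323 ± 9.61 CPM and was not called. Without early-stage replicate 1 the number of these genes called was 10. Of the 33 phagocytic cup genes tested, Myo1e rose from 122 ± 5.77 to 208 ± 9.20 CPM (0.77, adjusted p = 0.000213) and Asap1 fell by 0.35 (adjusted p = 0.0304), with a median of 0.03, and the calls came to 8 without early-stage replicate 1, to 5 with DESeq2 and to 1 without a filter on low counts.

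Of the 11 inhibitory signalling genes 1 rose and none fell (median 0.11), where 4.31% of all genes tested were called higher and 4.88% lower. The gene called was Inpp5d, which rose from 303 ± 12.4 to 365.5 ± 6.30 CPM (log2 change 0.27, SE 0.07, adjusted p = 0.0305, edgeR). Between 0 and 4 of these genes were called without single libraries: 4 without early-stage replicate 1, 2 without early-stage replicate 3 and none without early-stage replicate 2 or any late-stage replicate. With all libraries kept, DESeq2 and library totals each called 3, and none was called without a filter on low counts. Of the 12 other inhibitory receptors 2 rose and 1 fell (median 0.07). Siglece rose from 45.9 ± 1.83 to 100.4 ± 3.69 CPM (1.13, SE 0.07, adjusted p = 2.65e-05) and Clec12a by 0.25 (adjusted p = 0.0411), and Pirb fell from 312 ± 7.96 to 229.9 ± 22.6 CPM (-0.44, adjusted p = 0.0094). Of the 13 regulators 1 rose and 3 fell (median -0.10): Tgfbr2 rose by 0.40 (adjusted p = 0.00663), Il4ra fell from 526 ± 19.9 to 382 ± 8.40 CPM (-0.46, adjusted p = 0.0022), and C5ar1 and Ifngr1 fell by 0.25 and 0.24 (adjusted p = 0.0421 and 0.0474). Irf1 was 194 ± 32.1 CPM in early-stage and 166 ± 12.6 CPM in late-stage TAMs and was not called. The calls of Inpp5d, Clec12a, C5ar1 and Ifngr1, and that of Asap1, were lost without early-stage replicate 2 or any single late-stage replicate (adjusted p up to 0.144, 0.171, 0.175, 0.212 and 0.141). These 5 calls were also lost without a filter on low counts (adjusted p = 0.0542, 0.0674, 0.0738, 0.0649 and 0.062), that of Ifngr1 with library totals (0.0668) and that of Clec12a with upper-quartile factors (0.054). That of Pirb was lost without early-stage replicate 2 or late-stage replicate 2 or 3 (up to 0.0663), and that of Tgfbr2 without late-stage replicate 2 (0.0602).

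**Figure D4:**
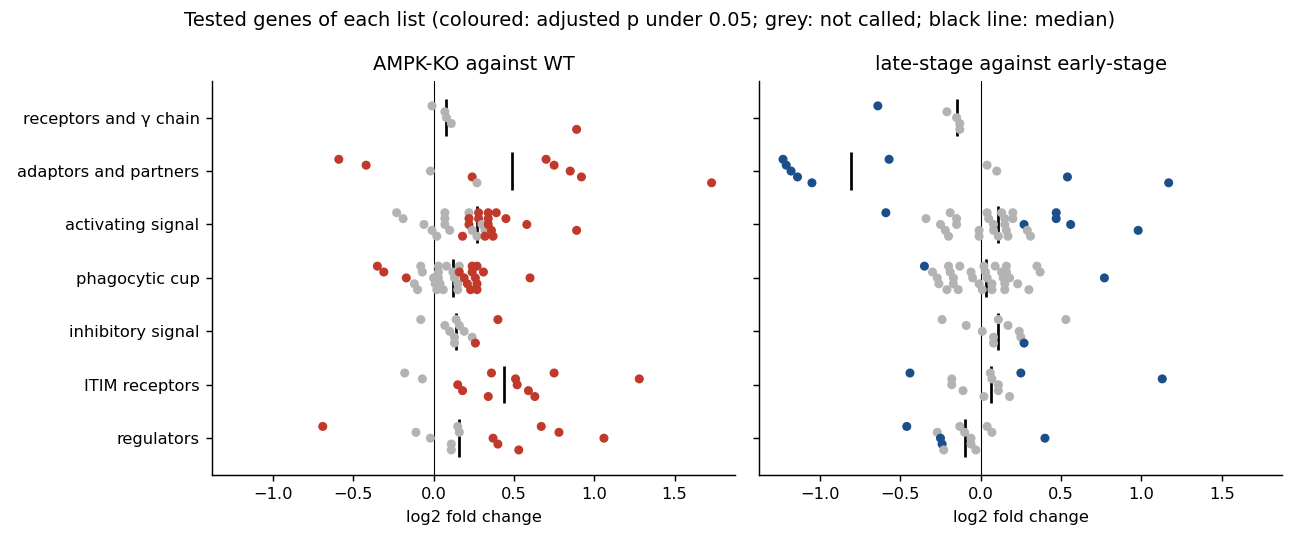
Log2 fold changes of the tested genes of each list for AMPK-KO against WT and late-stage against early-stage TAMs, with coloured points for an adjusted p under 0.05, grey points for genes not called and a black line at the list median. For AMPK-KO the medians of the activating signal (0.27) and of the other inhibitory receptors, labelled ITIM receptors (0.43), both lie above 0, and for late-stage the median of the adaptors and partners lies at -0.81.

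The level of each receptor was then set against that of the inhibitory Fcgr2b within each library, which needs no scaling between libraries. The ratio of Fcgr4 to Fcgr2b was 0.445, 0.460 and 0.452 in WT and 0.791, 0.756 and 0.784 in AMPK-KO replicates 1 to 3. The groups were far apart, and the log2 ratio was higher by 0.78. The ratio of the summed activating receptors (Fcgr1, Fcgr3 and Fcgr4) to Fcgr2b was 2.37, 2.50 and 2.39 in WT and 2.68, 2.58 and 2.67 in AMPK-KO libraries. It was higher by 0.13 on the log2 scale without overlap, while the ratio of Fcgr3 to Fcgr2b was lower by 0.13 and those of Fcgr1 and Fcer1g overlapped between groups.

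With stage all of these ratios were higher at day 15. The summed activating receptors stood at 3.43, 3.12 and 3.44 times Fcgr2b in early-stage and at 4.295, 4.88 and 4.73 times in late-stage libraries. Every late-stage library exceeded every early-stage library, by 0.48 on the log2 scale. For the single receptors and the γ chain the log2 ratios to Fcgr2b were higher by 0.49 (Fcgr1), 0.43 (Fcgr3), 0.51 (Fcgr4) and 0.51 (Fcer1g), all without overlap. These ratios share Fcgr2b as denominator and are given without a test. They are ratios of CPM, not corrected for gene length, and do not give the number of receptor molecules.

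**Figure D5:**
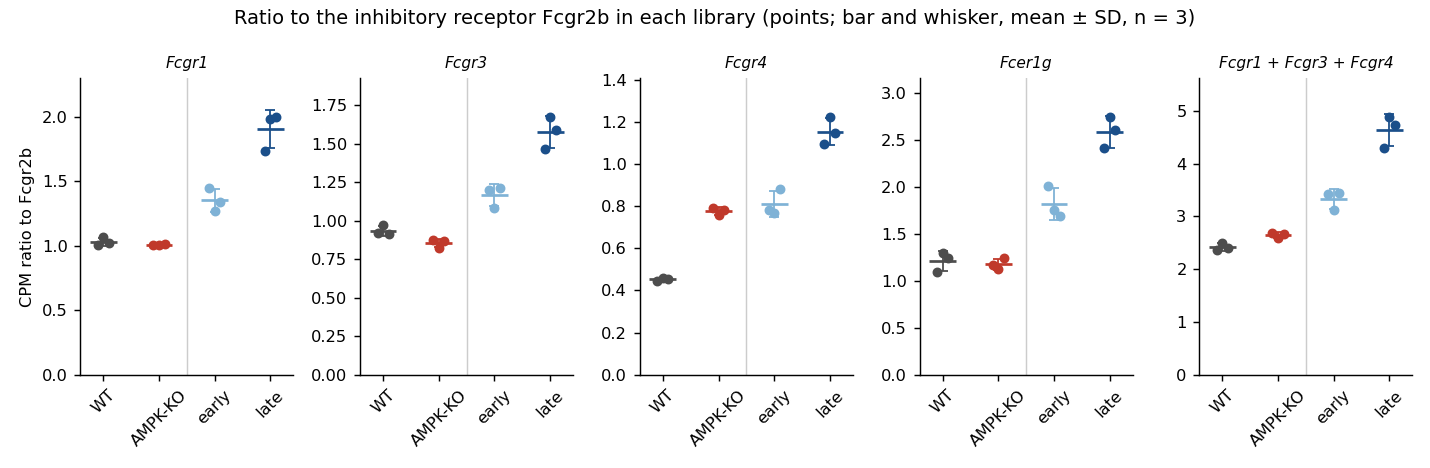
Ratio of the CPM of Fcgr1, Fcgr3, Fcgr4, Fcer1g and the summed activating receptors to that of Fcgr2b in each library, on axes from 0, with points for libraries and bars and whiskers for mean ± SD (n = 3); the grey line separates the 2 tables. The Fcgr4 ratio stands at 0.445 to 0.460 in WT and 0.756 to 0.791 in AMPK-KO libraries, and the summed ratio at 3.12 to 3.44 in early-stage and 4.295 to 4.88 in late-stage libraries.

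Across the 12 libraries, with log2 CPM centred within each table, the members followed each other to different degrees. Pearson's r was 0.82 between Fcgr2b and Fcgr3, 0.80 between Fcgr1 and Fcer1g and 0.77 between Fcgr1 and Fcgr3, but 0.31 between Fcgr4 and Fcgr2b and 0.12 between Fcgr4 and Fcgr3. Among 10331 genes with at least 5 CPM in both tables, the genes most like Fcgr4 were Gbp3 (r = 0.994), Plbd1 (0.993) and Gbp2 (0.993). Gbp2 and Gbp3 encode interferon-inducible guanylate-binding proteins. Gbp2 stood at 200.5 ± 4.48 CPM in WT and 462 ± 12.4 CPM in AMPK-KO TAMs, and at 339 ± 33.9 and 321 ± 10.5 CPM in early-stage and late-stage TAMs. The genes most like Fcgr2b were Clec4e (0.996), Bst1 (0.991) and Sgms2 (0.988). Bst1, a surface enzyme also called CD157, stood at 144 ± 9.27 and 166 ± 1.825 CPM in WT and AMPK-KO and at 143 ± 5.99 and 59.0 ± 4.72 CPM in early-stage and late-stage TAMs. The most alike genes were Rab8a (0.92), Vamp4 (0.919) and Apol9b (0.918) for Fcgr1, Chmp2b (0.956), Grk5 (0.941) and Psmd10 (0.927) for Fcgr3, and Lst1 (0.939), Psma7 (0.935) and Scnm1 (0.924) for Fcer1g. These values describe 12 libraries that share their groups, tables and scaling, and carry no test.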

How the data were processed

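RNA was measured by bulk RNA-seq in 12 samples of sorted TAMs, 3 in each of 4 groups taken from the labels. The authors mapped reads with HISAT2 and counted them per gene with featureCounts, and the deposited values are raw counts in 2 tables of 55401 genes. Versions, strand setting and the treatment of multiply mapped reads are not given in the sources used here. The methods write GRCh38, whereas 54349 gene identifiers match GENCODE M21 of the mouse build GRCm38 with their version, so positions and exon lengths come from that annotation. Promoter sequences come from the RefSeq table of GRCm38.p6, which held all 5 members.

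The tables were fitted separately with edgeR 4.0.16 in R 4.3.3 (filterByExpr, TMM factors, glmQLFit and glmQLFTest, no covariates), and a gene was called at a Benjamini-Hochberg adjusted p under 0.05, taken over all genes tested. CPM used TMM-scaled library sizes, and log2 fold changes are those of the fit. Total counts and replicate spread set the precision. An exact permutation test of 3 samples against 3 cannot go below p = 0.1 and was not used. The fits were run on simulated counts with known changes. This checked the median size of the fitted changes and the sign of those called, and set no limit on false calls. Alternatives were RLE or upper-quartile factors, library totals, DESeq2 1.42.0, other filters, the replicate number as a block, other thresholds and each library left out. The longest transcript as gene length was added after seeing the data.

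The members and all lists were chosen with earlier results of these data known. Named genes are the members, Prkaa1, every tested gene among other Fc receptors and IgG heavy chains, up to 3 called genes with the smallest adjusted p per list and direction, genes within 50 kb of the cluster, and the 3 genes with the highest Pearson r to each member (log2 CPM, prior count 2, mean of at least 5 CPM in both tables). Syk, Spi1, Tyrobp, Inpp5d, Clec4b1 and Clec4e for AMPK-KO, Irf1 for stage, Ddx3y, Eif2s3y, Kdm5d, Uty and the named cell markers were named after their values were seen. Some items that this rule names are not reported here.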

Additional observations from a re-analysis of the deposited data

How the results depend on the processing

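The Fcgr4 call for AMPK-KO (log2 fold change 0.87 to 0.91) and the Fcgr2b call for late-stage TAMs (-0.70 to -0.61) held at an adjusted p under 0.05 with each other scaling, filter and tool, with the replicate block and without any single library. Neither passes an absolute log2 fold change above 1. For AMPK-KO the members called came to 2 with library totals and with DESeq2, since Fcgr2b then passed (0.12 in both). Over all genes, 3621 of 17532 were called with library totals and 4106 of 27518 with DESeq2. Without single libraries Fcgr3 ran from -0.04 to 0.02 and Fcer1g from -0.00 to 0.13 for AMPK-KO, Ighg2c from -0.39 to 0.02, and for stage Fcgrt from -0.04 to 0.11 and Fcmr from -0.04 to 0.65, none of them called. By longest transcript Fcgr3 ranked 2 and Fcgr4 ranked 3 in AMPK-KO and late-stage TAMs. Named genes other than the members lost a call in 19 instances under alternatives that kept all libraries and in 54 instances when a library was left out.

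Of all genes tested, 3693 were called for AMPK-KO, 2414 to 4039 without single libraries (2414 without WT replicate 3 and 2419 without AMPK-KO replicate 2). The count was 585 with an absolute log2 fold change above 1 and 1140 with DESeq2 at an unadjusted p under 0.05 and that fold. This DESeq2 rule is the one in the study's methods, and the study reports fewer differentially expressed genes. Why its count differs was not tested. For stage 1619 were called, 653 to 2835 without single libraries, 2447 with DESeq2, 936 without a filter, 329 with the fold and 997 with DESeq2 unadjusted and the fold. The stage count was 2835 without early-stage replicate 1, 680 without early-stage replicate 2, and 853, 653 and 682 without late-stage replicates 1, 2 and 3. The cause was not tested. RLE, upper-quartile factors and library totals moved the median log2 fold change by at most 0.0252.

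The replicate numbers did not pair the samples. Deviations of same-numbered libraries from their group means correlated by 0.042, -0.004 and 0.001 for AMPK-KO and WT and by 0.013, 0.018 and 0.026 for the stages, and in neither table did every library correlate best with its own number. With the replicate block 3862 of 17532 and 1417 of 17630 genes were called, with 1 of 5 members in each comparison. For stage the calls of Fcrls, Asap1, Inpp5d, Clec12a, C5ar1 and Ifngr1 were lost with it (adjusted p from 0.0597 to 0.0968), and for AMPK-KO that of Fcrl6 was gained.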
